A study of Homo sapiens with 18 samples.

Results

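Transcripts of 10 genes of the Notch pathway were measured in OVCAR-3 cells exposed to 2 inhibitors of BET bromodomain proteins. The genes were taken as a named list and looked up by their Ensembl identifiers. They comprised the receptors NOTCH1, NOTCH2 and NOTCH3, the ligands JAG1, JAG2 and DLL1, the nuclear co-activator MAML2 and the target genes HES1, HES4 and HEY1. All 10 were found among the 58825 genes of the count tables and all 10 had enough reads to be tested. OVCAR-3 is an established line from a high-grade serous ovarian carcinoma, so the cells are 1 line with its own genetic background. The 18 libraries formed 6 groups of 3 replicates each: cells in stripped medium with DMSO as vehicle, with 1 µM i-BET858 or with 1 µM i-BET151, collected after 4 h or after 24 h. The design asks which transcripts each inhibitor raised or lowered against the vehicle of the same time, and where the compounds differed at the same dose.

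Notch receptors sit on the cell surface and are switched on by ligands of the Jagged and Delta-like families on neighbouring cells. Binding exposes the receptor to an ADAM protease and then to the γ-secretase complex, which releases the intracellular domain. In the nucleus this domain joins the DNA-binding protein RBPJ and a Mastermind-like protein such as MAML2, and the complex switches on genes of the HES and HEY families, which encode repressors of the basic helix-loop-helix class. Notch signalling is often altered in high-grade serous ovarian carcinoma, in which NOTCH3 gain has been described. BET proteins read acetylated histones and help RNA polymerase II to elongate, and the inhibitors block that reading.

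The libraries held 27323969 to 46299994 counts on genes. Levels are given as CPM, a gene's counts relative to its library's total after scaling by the trimmed mean of M values (TMM). At these depths 3 counts, the limit that a count of 0 allows, correspond to 0.0648 to 0.110 CPM before the TMM scaling, which covers counting error only. The replicate 3 libraries stood apart, with 17817 to 20642 genes with at least 1 count against 23674 to 24947 in replicates 1 and 2. They also carry a separate run of sample numbers, and the labels do not say why. The main fits held no term for the replicate number, so this difference enters their spread between libraries. The summed level of 10 markers of serous ovarian epithelium, all with counts in every library, was 8897 to 10436 CPM in vehicle at 4 h, 11925 to 12509 under i-BET858 and 9959 to 10558 under i-BET151, and 7186 to 7647 CPM in all 6 treated libraries at 24 h against 9157 to 10527.5 in vehicle. These sums rest largely on KRT8, which alone measured 3740 to 7369 CPM over all libraries. KRT18, the next by median, measured 577 to 1774 CPM, so the sums do not show a shift of the whole marker set. Markers of leukocytes (4 genes, at most 3.09 CPM in sum) and endothelium (3 genes, at most 5.37) were near 0. The 4 fibroblast markers summed to 21.2 to 47.2 CPM, nearly all of it COL1A1, while DCN was at or near 0. The part of these shifts in the summed epithelial markers in the results below was not tested. In bulk RNA, fewer cells of one kind and less RNA per cell cannot be told apart. Nothing in the labels says how the replicate cultures were separated, so the p-values measure the spread between these libraries. Both inhibitors were compared with the same vehicle libraries at each time.

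The start-proximal sequence of the members was searched for TGGGAA, the core of the site that RBPJ is known to bind, on both strands. The 250 bases before the start site were available from RefSeq (GRCh38.p14) for 8 of the 10 genes, all but DLL1 and HEY1. HES1 held 2 copies and HES4 held 1, whereas NOTCH1, NOTCH2, NOTCH3, JAG1, JAG2 and MAML2 held none. Across all 35116 promoters of this length, 20.85% held at least 1 copy and 2.896% at least 2, so a single copy is common. The most 5′ copy of HES1 and the copy of HES4 lie in a stretch of 12 bases that both share. It was picked as the longest stretch common to these 2 windows on the strand of the gene. Read on that strand alone, it was found in 5 of the 35116 promoters, HES1 and HES4 included. Since the stretch was picked from these 2 windows, that count is a description and no test of a shared site. The 30 bases around it are shown for both genes so that the shared stretch can be seen, with TGGGAA in capitals. They run from 94 to 65 bases before the HES1 start (chr3:194136054-194136083, plus strand) and from 86 to 57 bases before the HES4 start (chr1:1000154-1000183, minus strand, across the upstream end of the gene's GENCODE 44 annotation).
HES1 site: aaagttactgTGGGAAagaaagttTGGGAA
HES4 site: ggggcgagtgTGGGAAagaatgcggagccg
The promoters of NOTCH1 and MAML2 are shown because these members changed in all 4 comparisons with vehicle and had the largest rise and the largest fall at 4 h. The NOTCH1 window is chr9:136546049-136546298 on the minus strand, with a GC content of 76%, and the MAML2 window is chr11:96343196-96343445 on the minus strand, with 63.6%. Neither carries capitals, since TGGGAA is in neither window. That says only that these letters are missing from these 250 bases.
NOTCH1 promoter: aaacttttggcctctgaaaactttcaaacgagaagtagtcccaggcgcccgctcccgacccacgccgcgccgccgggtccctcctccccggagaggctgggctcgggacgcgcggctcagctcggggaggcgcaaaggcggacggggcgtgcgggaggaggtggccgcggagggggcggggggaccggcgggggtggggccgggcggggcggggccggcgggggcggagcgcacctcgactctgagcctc
MAML2 promoter: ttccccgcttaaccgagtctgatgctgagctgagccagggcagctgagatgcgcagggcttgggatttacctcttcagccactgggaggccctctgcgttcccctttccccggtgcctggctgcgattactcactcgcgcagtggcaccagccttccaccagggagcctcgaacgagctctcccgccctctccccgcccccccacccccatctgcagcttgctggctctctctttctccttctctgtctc

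Before treatment effects, the vehicle libraries give the order of the levels, here as CPM per kilobase of annotated exon so that genes of different length can be compared. After 4 h with DMSO, HES4 was highest at 91.7 CPM per kilobase and JAG1 next at 46.003. NOTCH3 at 32.1 and NOTCH2 at 32.1 followed, and the ranges of JAG1, NOTCH3 and NOTCH2 overlapped from each to the next. HES1 stood at 20.00 and NOTCH1 at 10.05 CPM per kilobase, so NOTCH1 was the lowest of the 3 receptors. JAG2 was at 2.94, HEY1 at 1.44, MAML2 at 1.26 and DLL1 lowest at 0.287. HEY1 and MAML2 overlapped, and with the longest transcript as the length, NOTCH2 and NOTCH3 changed places. Under i-BET858 at 4 h, NOTCH1 reached 33.03 CPM per kilobase. At 24 h under i-BET858, NOTCH1 (18.1) stood above NOTCH3 (13.4) in mean level.

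**Figure D1:**
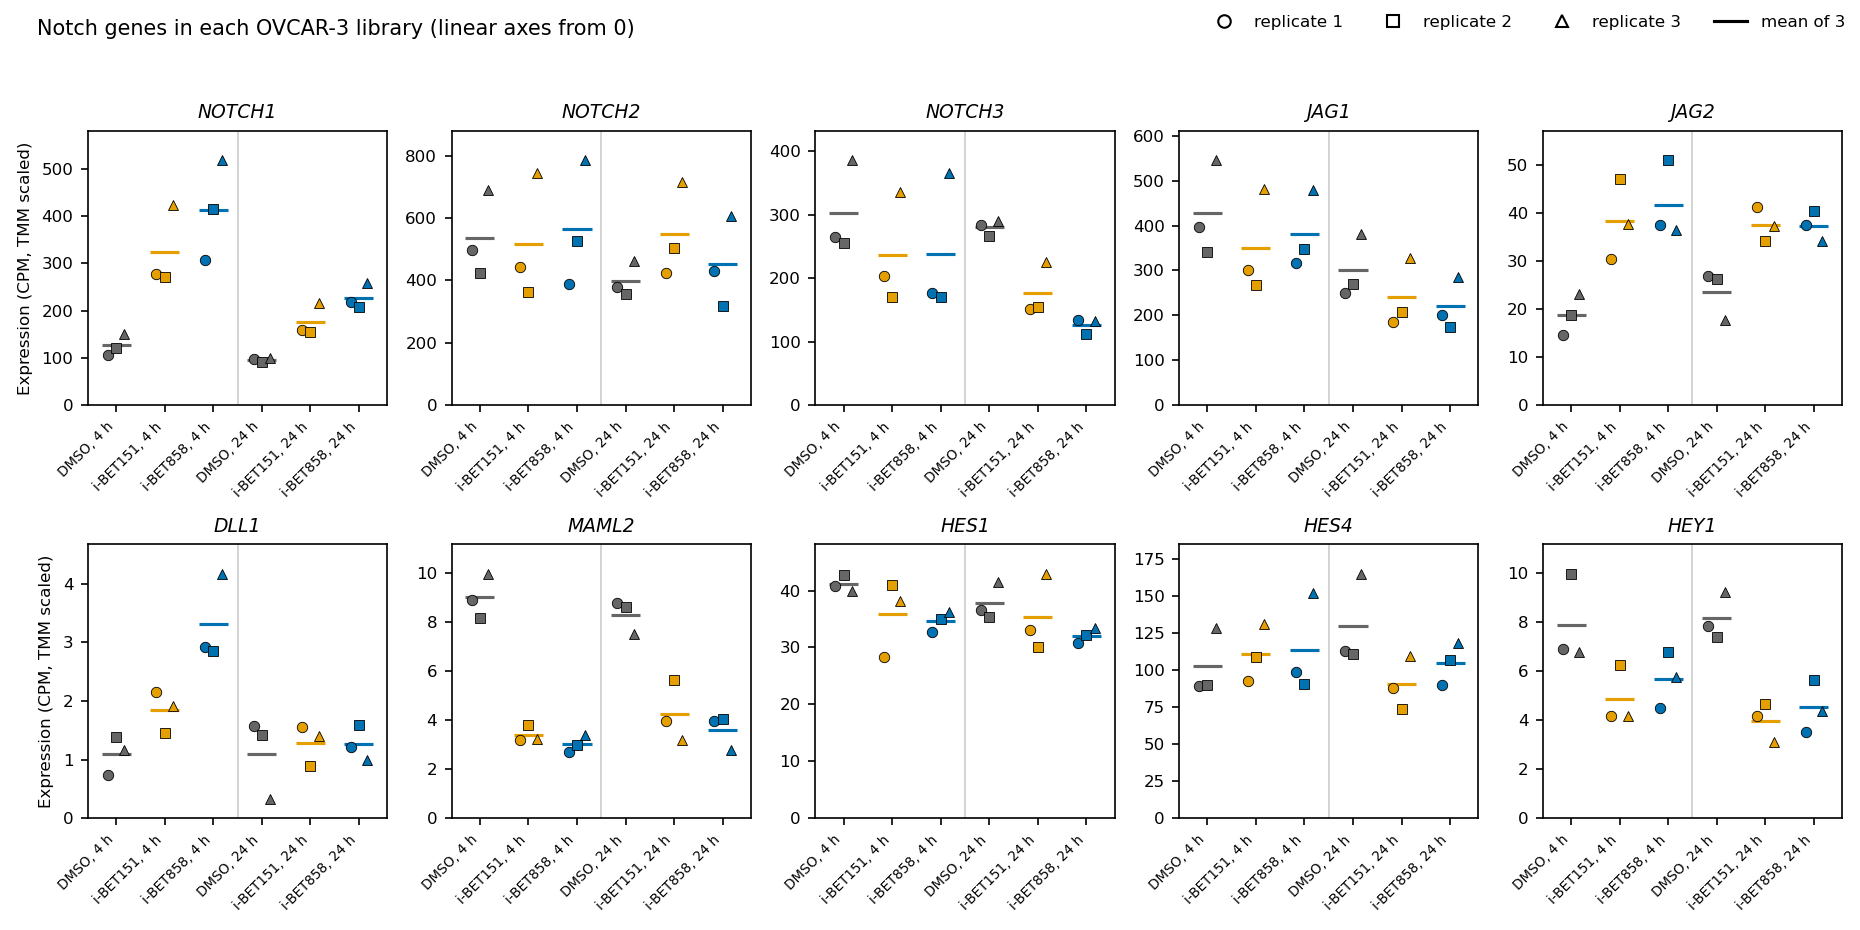
Level of each of the 10 genes in all 18 libraries, in CPM on a linear axis from 0 with its own scale for each gene, by group; each point is 1 library, its shape gives the replicate number and the line is the mean of 3. NOTCH1 and JAG2 lie higher and MAML2 lower in every treated library than in the vehicle libraries of the same time, while NOTCH2 overlaps throughout.

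Of the receptors, NOTCH1 rose with both inhibitors at both times and NOTCH3 fell at 24 h. NOTCH2 missed the threshold in all 4 comparisons with vehicle, though under i-BET151 at 24 h it passed under 2 other settings. NOTCH1 (ENSG00000148400, GRCh38 chr9:136494433-136546048, minus strand) measured 106, 120.2 and 151 CPM in replicates 1 to 3 of vehicle at 4 h. Under i-BET858 the replicates gave 308, 416 and 518 CPM, and under i-BET151 278, 271 and 423 CPM. All 6 treated libraries lay above all 3 vehicle libraries, and replicate 3 was the highest in each group. The rise was 3.30-fold under i-BET858 (log2 fold change 1.72 ± 0.23, SE, adjusted p = 0.000185) and 2.57-fold under i-BET151 (1.36 ± 0.22, adjusted p = 0.0019). After 24 h, NOTCH1 measured 96.2, 90.5 and 99.4 CPM in vehicle, 217, 206 and 257 CPM under i-BET858 and 158, 155 and 216 CPM under i-BET151. Again no treated library overlapped with vehicle. NOTCH1 was 2.31-fold higher under i-BET858 (1.21 ± 0.15, adjusted p = 8.98e-05) and 1.82-fold higher under i-BET151 (0.86 ± 0.15, adjusted p = 0.0011). In each of these 4 comparisons NOTCH1 passed the test under all 9 other settings of the fit and without any 1 of the 9 libraries of that time.

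NOTCH3 (ENSG00000074181, chr19:15159038-15200995, minus strand) measured 284, 267 and 290.0 CPM in vehicle at 24 h. Under i-BET858 it measured 134, 111 and 132 CPM and under i-BET151 151, 154 and 226 CPM. Every treated library lay below every vehicle library. NOTCH3 fell 2.29-fold under i-BET858 (log2 −1.19 ± 0.16, adjusted p = 0.00016) and 1.60-fold under i-BET151 (−0.68 ± 0.16, adjusted p = 0.00665), the latter not past the threshold when all 18 libraries were fitted together (adjusted p = 0.0761). At 4 h the groups overlapped, with 265, 255 and 386 CPM in vehicle, 177, 170.0 and 367 CPM under i-BET858 and 203, 169.7 and 336 CPM under i-BET151. Within each replicate number the treated library was nonetheless the lower one. The log2 differences of −0.34 and −0.36 missed the threshold (adjusted p = 0.47 and 0.517). They passed it with the replicate number as a block (adjusted p = 0.00316 for i-BET858 and 0.00613 for i-BET151) and in replicates 1 and 2 alone (0.00165 and 0.00911). The i-BET858 difference also passed without i-BET858 replicate 3 (log2 −0.80, adjusted p = 0.0434).

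NOTCH2 (ENSG00000134250, chr1:119911553-120100779, minus strand) had the most counts of the receptors. It measured 498, 423 and 691 CPM in vehicle at 4 h, 388, 526 and 785 under i-BET858 and 444, 361 and 745 under i-BET151. At 24 h the values were 378, 357 and 463 CPM in vehicle, 430.3, 317 and 608 under i-BET858 and 424, 505 and 717 under i-BET151. Replicate 3 was the highest in all 6 groups, and the spread between replicates was wide. The log2 differences from vehicle were 0.081 and −0.057 at 4 h (95% intervals −0.57 to 0.74 and −0.71 to 0.60) and 0.14 and 0.44 at 24 h (−0.40 to 0.67 and −0.10 to 0.97), for i-BET858 and i-BET151 in that order. With the replicate block, the 24 h difference of i-BET151 passed the test (adjusted p = 0.00951), as it did without a filter on low counts (0.0042). The first exons of NOTCH2 have near-identical copies in the NOTCH2NL genes of chromosome 1, so its counts may lack or share reads there.

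**Figure D2:**
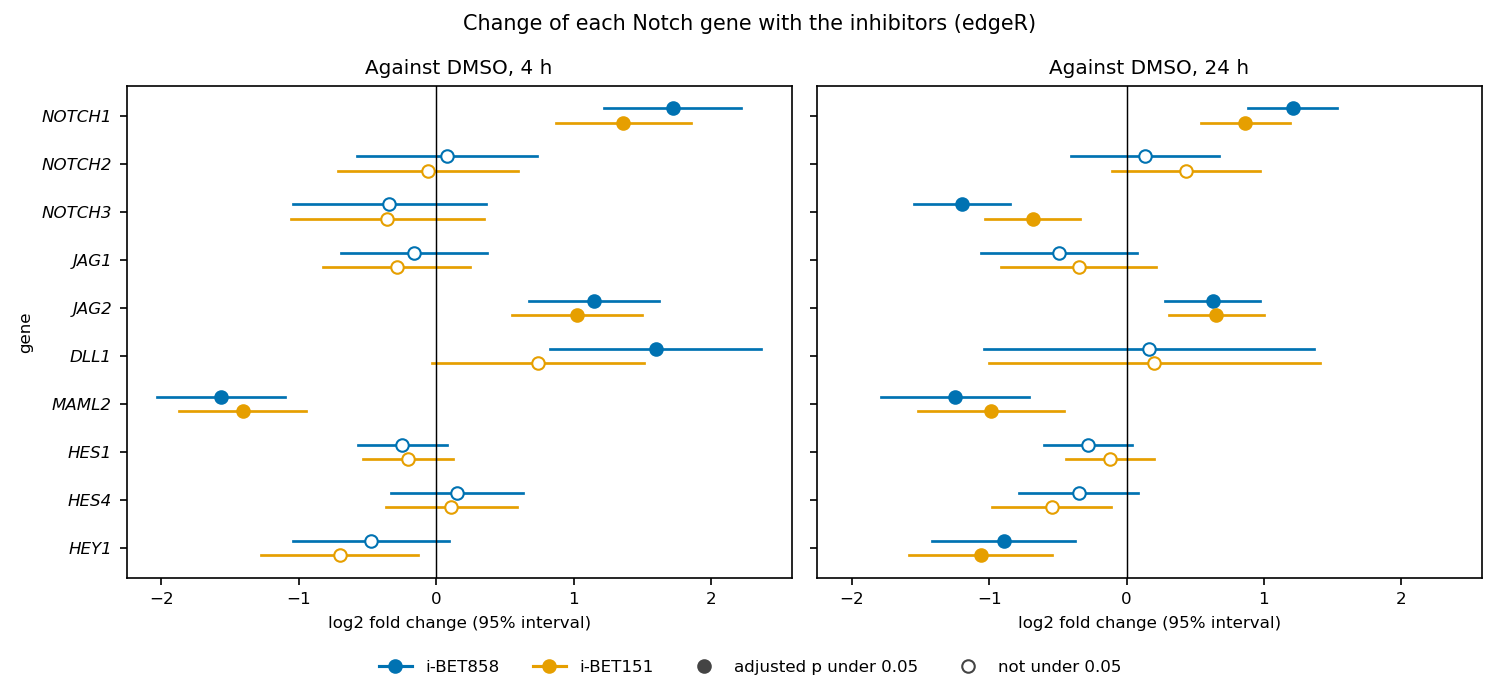
Log2 fold change against the vehicle of the same time, with 95% interval, for each gene, inhibitor and time; filled points passed the test at an adjusted p under 0.05. NOTCH1 and JAG2 lie right of 0 and MAML2 left of 0 in all 4 comparisons, and NOTCH3 and HEY1 left of 0 with filled points at 24 h.

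The 3 receptors were also set against each other, as shares of their summed CPM per kilobase. NOTCH1 made up 13.7% ± 1.56 (SD, n = 3) in vehicle at 4 h, 36.5% ± 3.83 under i-BET858 and 32.2% ± 2.87 under i-BET151. At 24 h its share was 12.5% ± 0.433 in vehicle, 31.4% ± 3.10 under i-BET858 and 21.6% ± 1.53 under i-BET151. The share of NOTCH3 was lower in the treated libraries instead. It was 43.2% ± 0.663 in vehicle, 26.9% ± 4.53 under i-BET858 and 30.5% ± 0.957 under i-BET151 at 4 h. At 24 h NOTCH3 made up 48.7% ± 1.99, 23.3% ± 2.98 and 28.7% ± 0.993 in the same order of groups. The share of NOTCH2 at 4 h was 43.1% ± 2.06 in vehicle, 36.6% ± 1.62 under i-BET858 and 37.3% ± 1.92 under i-BET151, lower in the treated libraries. At 24 h it was 38.8% ± 2.42, 45.4% ± 5.59 and 49.7% ± 2.43 in that order, higher on average in the treated libraries. Since the 3 shares sum to the whole, the share of NOTCH2 moves with the levels of NOTCH1 and NOTCH3, and its own log2 fold changes at 4 h were 0.081 and −0.057 (adjusted p = 0.873 and 0.93). For the shares of NOTCH1 and NOTCH3 the treated and vehicle libraries did not overlap in any of the 4 comparisons, and the exact two-sided permutation p was 0.1, the smallest that 3 against 3 libraries can give, so these shares cannot reach 0.05. The direction was the same with the longest transcript as the length, an alternative chosen after the data were seen.

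**Figure D3:**
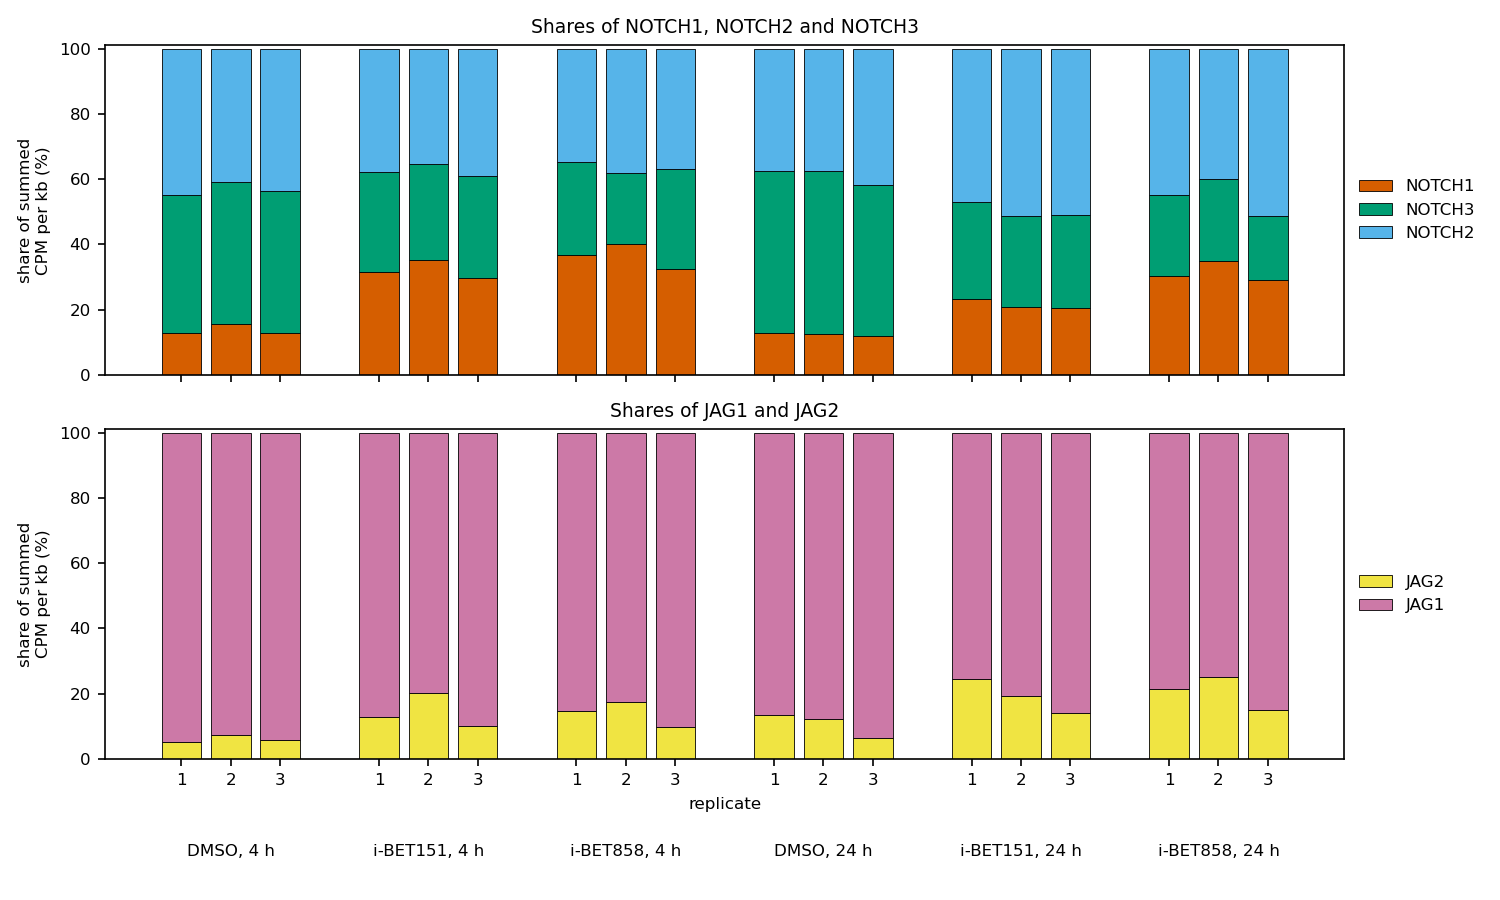
Share of NOTCH1, NOTCH2 and NOTCH3 in their summed CPM per kilobase (percent, top) and of JAG1 and JAG2 in theirs (bottom); each stacked bar is 1 library, labelled by replicate and group. At 4 h the mean NOTCH1 share is 13.7% in vehicle and 36.5% under i-BET858, and that of JAG2 is 6.09% and 14.1%.

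Among the ligands, JAG2 rose with both inhibitors at both times, DLL1 rose under i-BET858 at 4 h, and JAG1 missed the threshold in all 4 comparisons, though it passed under some other settings. JAG2 (ENSG00000184916, chr14:105140982-105168824, minus strand) measured 14.6, 18.7 and 23.1 CPM in vehicle at 4 h, 37.4, 50.9 and 36.3 under i-BET858 and 30.4, 46.99 and 37.6 under i-BET151. The lowest treated library lay above the highest vehicle library. JAG2 was 2.22-fold higher under i-BET858 (log2 1.15 ± 0.22, adjusted p = 0.00193) and 2.04-fold higher under i-BET151 (1.03 ± 0.22, adjusted p = 0.00796). At 24 h it measured 26.9, 26.1 and 17.6 CPM in vehicle, 37.5, 40.4 and 34.2 under i-BET858 and 41.1, 34.2 and 37.3 under i-BET151. The rises of 1.55-fold and 1.57-fold (adjusted p = 0.00809 and 0.00849) were not shown to differ from those at 4 h (interaction test, adjusted p = 0.231 for i-BET858 and 0.459 for i-BET151), though in replicates 1 and 2 alone the change of the i-BET858 effect passed (−0.87, adjusted p = 0.0209, against −0.48 in all 3).

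JAG1 (ENSG00000101384, chr20:10637684-10673999, minus strand), a ligand that binds all of these receptors, was the most abundant ligand. It measured 397, 341 and 546 CPM in vehicle at 4 h, 316, 347 and 479.5 under i-BET858 and 302, 268 and 482 under i-BET151. At 24 h the values were 249.7, 269 and 382 CPM, 201, 174 and 285 CPM and 184, 207 and 328 CPM in the same order of groups. Replicate 3 was the highest throughout and the groups overlapped. At 24 h the log2 differences were −0.49 ± 0.26 under i-BET858 (adjusted p = 0.152) and −0.35 ± 0.26 under i-BET151 (0.333). Each treated library was lower than the vehicle library of its number, and with the replicate block both passed the test (adjusted p = 0.000375 and 0.00377), as they did in replicates 1 and 2 alone (0.000413 and 0.00111). At 4 h only i-BET151 passed in this way, at 0.0112 with the block and 0.0332 in replicates 1 and 2. In the sum of both Jagged ligands per kilobase, JAG2 made up 6.09% ± 1.19 in vehicle and 14.1% ± 3.87 under i-BET858 at 4 h, and 10.7% ± 3.90 and 20.5% ± 5.23 at 24 h.

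DLL1 (ENSG00000198719, chr6:170282206-170306565, minus strand), a Delta-like ligand, had few reads, with 10 to 147 counts per library. In vehicle at 4 h it measured 0.737, 1.39 and 1.16 CPM, under i-BET858 2.92, 2.86 and 4.18 CPM and under i-BET151 2.15, 1.45 and 1.91 CPM. The 3 i-BET858 libraries lay above all 6 others. The rise under i-BET858 was 3.02-fold (log2 1.60 ± 0.35, adjusted p = 0.00494), and the difference under i-BET151 was 0.74 ± 0.35 (adjusted p = 0.186). At 24 h DLL1 stood at 1.58, 1.41 and 0.319 CPM in vehicle, 1.22, 1.58 and 0.994 under i-BET858 and 1.56, 0.882 and 1.40 under i-BET151, and all 3 groups overlapped. Vehicle replicate 3 held only 10 counts there. Its exons overlap those of FAM120B on the opposite strand over 370 bp, and FAM120B had 290 to 1137 counts per library. Whether the counting used strand is not given in the sources used here, so how reads from that overlap were assigned or left out is not known. Their part in these values was not tested.

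MAML2 (ENSG00000184384, chr11:95976598-96343195, minus strand), the Mastermind-like co-activator that bridges the Notch-RBPJ complex to histone acetyltransferases, fell with both inhibitors at both times. It measured 8.91, 8.14 and 9.97 CPM in vehicle at 4 h, 2.70, 2.99 and 3.38 under i-BET858 and 3.20, 3.78 and 3.23 under i-BET151. The highest treated library was below the lowest vehicle library by a wide margin. MAML2 fell 2.96-fold under i-BET858 (log2 −1.57 ± 0.21, adjusted p = 0.00022) and 2.65-fold under i-BET151 (−1.41 ± 0.21, adjusted p = 0.00106). At 24 h it measured 8.79, 8.59 and 7.52 CPM in vehicle, 3.94, 4.03 and 2.78 under i-BET858 and 3.95, 5.63 and 3.20 under i-BET151, again without overlap. The falls were 2.37-fold (adjusted p = 0.00193) and 1.98-fold (adjusted p = 0.00937). Of its paralogues, both named after their values were seen, MAML1 was at 0.25 and 0.37 in log2 fold change at 4 h (adjusted p = 0.272 and 0.146; with the block 0.36, adjusted p = 0.0182 under i-BET151) and rose at 24 h (0.54 and 0.52, adjusted p = 0.00282 and 0.0051). MAML3 was at 0.65 and 0.21 at 4 h (adjusted p = 0.244 and 0.779) and fell under i-BET858 at 24 h (−0.86, adjusted p = 0.0185).

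Of the target genes, HEY1 fell with both inhibitors at 24 h, and HES1 and HES4 missed the threshold in all 4 comparisons with vehicle, though some 24 h differences passed it under other settings. HEY1 (ENSG00000164683) measured 7.85, 7.38 and 9.24 CPM in vehicle at 24 h, 3.53, 5.64 and 4.39 under i-BET858 and 4.15, 4.65 and 3.11 under i-BET151. All 6 treated libraries lay below the 3 vehicle libraries. HEY1 fell 1.86-fold under i-BET858 (log2 −0.89 ± 0.23, adjusted p = 0.0105) and 2.09-fold under i-BET151 (−1.06 ± 0.24, adjusted p = 0.00554). Without i-BET858 replicate 1 the former missed the threshold (log2 −0.74, adjusted p = 0.0515). At 4 h HEY1 measured 6.91, 9.97 and 6.77 CPM, 4.49, 6.76 and 5.74 CPM and 4.17, 6.26 and 4.19 CPM in vehicle, i-BET858 and i-BET151. The log2 differences of −0.47 and −0.70 missed the threshold (adjusted p = 0.2 and 0.0957), and that of i-BET151 passed it with the block (0.00899).

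HES1 (ENSG00000114315, chr3:194136148-194138732, plus strand), the target whose promoter site is shown above, measured 40.8, 42.7 and 40.00 CPM in vehicle at 4 h, 32.7, 34.95 and 36.2 under i-BET858 and 28.3, 40.9 and 38.2 under i-BET151. At 24 h it measured 36.6, 35.4 and 41.5 CPM in vehicle, 30.7, 32.2 and 33.4 under i-BET858 and 33.1, 30.02 and 42.99 under i-BET151. The i-BET858 libraries lay below vehicle at both times without overlap, by a narrow margin. Their log2 differences were −0.25 ± 0.15 (adjusted p = 0.244) and −0.28 ± 0.14 (0.149), and the 24 h difference passed with the block (0.0448), in replicates 1 and 2 (0.0413) and with total counts as library size (0.0453). For i-BET151 the differences were −0.20 ± 0.15 and −0.12 ± 0.14 (adjusted p = 0.408 and 0.572), and the 24 h one passed in replicates 1 and 2 alone (0.0455).

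HES4 (ENSG00000188290, chr1:998962-1000172, minus strand), a HES family gene absent from the mouse genome, measured 89.4, 89.8 and 128 CPM in vehicle at 4 h, 98.5, 90.2 and 152 under i-BET858 and 92.6, 108 and 131 under i-BET151. At 24 h it measured 113, 111 and 165 CPM, 89.8, 107 and 118 CPM and 87.9, 73.6 and 109.5 CPM in the same order. Groups overlapped at 4 h, and at 24 h the i-BET151 libraries lay below vehicle. The 24 h difference of i-BET151 was −0.54 ± 0.20 (adjusted p = 0.054). It passed under 6 of 9 other settings, with the block (0.00128) and DESeq2 (0.0255) among them, in replicates 1 and 2 (0.00113), without vehicle replicate 2 (0.0454) and without i-BET151 replicate 3 (0.0213). For i-BET858 at 24 h it was −0.35 ± 0.20 (adjusted p = 0.185, and 0.0215 with the block). At 4 h the differences were 0.15 and 0.11.

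Counted over the list, 4 of the 10 genes passed the test under i-BET858 at 4 h (3 higher, 1 lower), against 30.8% of the 17192 genes tested (14.5% higher, 16.3% lower). Under i-BET151 at 4 h 3 of 10 passed (2 higher, 1 lower), against 16.2% (7.81% higher, 8.43% lower). At 24 h 5 of 10 passed under i-BET858 and 5 under i-BET151, in each case 2 higher and 3 lower, against 41.7% and 33.8% of all genes. Of all genes, 20.5% were higher and 21.3% lower under i-BET858, and 17.2% and 16.6% under i-BET151. NOTCH1, JAG2 and MAML2 were in all 4 counts. Nothing particular to the list is read from these shares. With the block the counts were 5 and 6 at 4 h, against 45.4% and 32.7% of all genes, and 8 and 8 at 24 h, against 52.0% and 45.9%. With a change of at least 2-fold as a further criterion, 4 and 3 members passed at 4 h, against 14.1% and 7.1% of all genes, and 3 and 1 at 24 h, against 18.8% and 13.7%. Treated and vehicle libraries did not overlap for 6 members under i-BET858 and 5 under i-BET151 at 4 h (44.6% and 36.7% of all genes) and for 6 with each at 24 h (55.1% and 48.9%). The median log2 fold change of the members was −0.041 and −0.13 at 4 h and −0.31 and −0.23 at 24 h for i-BET858 and i-BET151, beside 0.023, 0.0082, −0.012 and 0.0046 over all genes tested.

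i-BET858 and i-BET151 were then compared directly at the same dose and times, which made 20 pairs. The structures behind these code names are not described here. In edgeR no member passed at 4 h (0.971% of all genes did) or at 24 h (0.21%). DESeq2 also called 0 members at either time, against 2.05% and 1.33% of the 32101 and 31697 genes with a p-value. That set includes genes of few counts that the edgeR filter removed. DESeq2 shares, here and below, are therefore not comparable with those of edgeR. At an unadjusted p under 0.05 there was 1 member at 4 h and 2 members at 24 h, against 11.9% and 11.4% of all genes. DLL1 was higher under i-BET858 at 4 h by 0.86 in log2 fold change (95% interval 0.10 to 1.61, adjusted p = 0.327), and the groups of 3 did not overlap, as for 16.8% of all genes. NOTCH3 was lower under i-BET858 at 24 h, at −0.51 (−0.86 to −0.17, adjusted p = 0.227), again without overlap (19.5% of all genes). NOTCH1 was higher under i-BET858 at 24 h by 0.35 (0.026 to 0.67, adjusted p = 0.392), with overlap. With the replicate block NOTCH1 passed at 4 h (0.36, adjusted p = 0.0205) and at 24 h (0.36, 0.037), and NOTCH3 at 24 h (−0.49, 0.0235). Of all genes, 9.63% and 4.37% passed with the block at 4 h and 24 h. In replicates 1 and 2 alone NOTCH1 passed at 24 h (0.45, adjusted p = 0.00397), as 7.29% of all genes did.

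For the other members the intervals of the difference bound how far the responses may lie apart, and these differences did not pass the test. For MAML2 the difference was −0.16 (95% interval −0.63 to 0.30) at 4 h and −0.26 (−0.80 to 0.27) at 24 h. JAG2 differed by 0.12 (−0.34 to 0.59) and −0.025 (−0.37 to 0.32). For HEY1 the values were 0.23 (−0.35 to 0.80) and 0.17 (−0.35 to 0.69), and for HES1 −0.043 (−0.37 to 0.28) and −0.16 (−0.48 to 0.16). NOTCH2, whose spread was wide, differed by 0.14 (−0.52 to 0.79) and −0.30 (−0.84 to 0.24), JAG1 by 0.13 (−0.41 to 0.66) and −0.14 (−0.71 to 0.42), and HES4 by 0.041 (−0.44 to 0.52) and 0.20 (−0.24 to 0.63). At the other time NOTCH1 differed by 0.36 (−0.12 to 0.84, 4 h), NOTCH3 by 0.016 (−0.69 to 0.72, 4 h) and DLL1 by −0.037 (−1.23 to 1.15, 24 h).

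**Figure D4:**
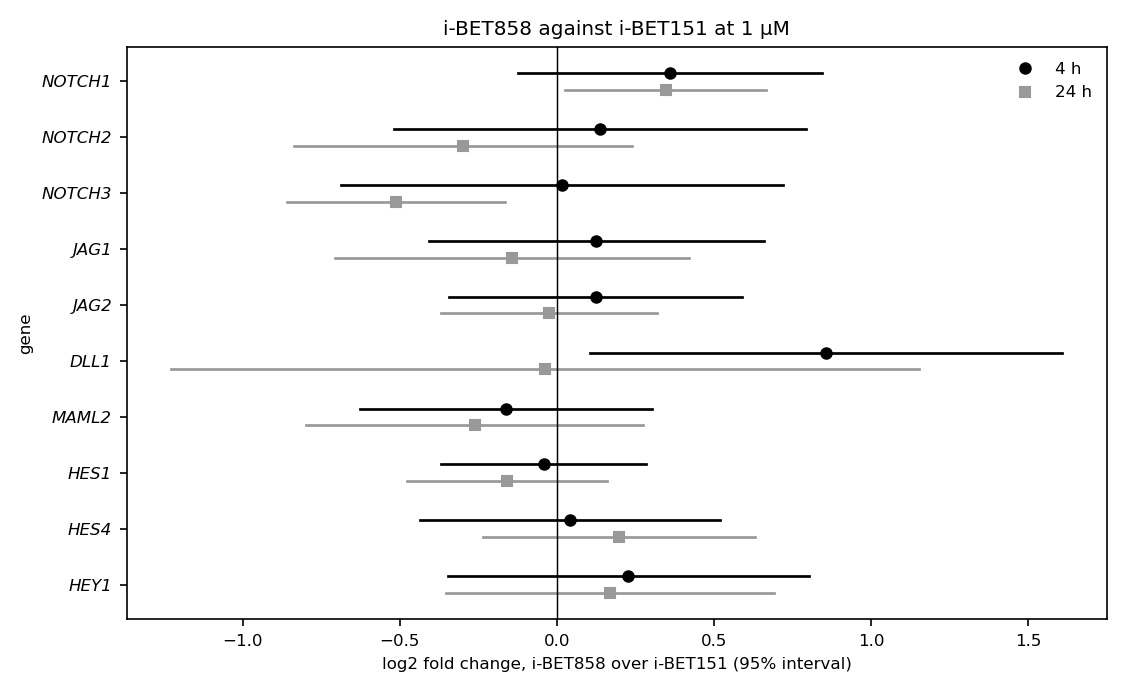
Difference between i-BET858 and i-BET151 for each gene, in log2 fold change with its 95% interval, at 4 h and 24 h; values right of 0 are higher under i-BET858. Intervals exclude 0 for DLL1 at 4 h and for NOTCH1 and NOTCH3 at 24 h, and no gene passed after adjustment over all genes.

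The effects at 24 h were set against those at 4 h by an interaction test over all 18 libraries. No member passed in edgeR for i-BET858 (27.2% of all genes did) or i-BET151 (13.8%), nor in DESeq2 (15.6% and 9.01% of all genes it tested). At an unadjusted p under 0.05 there was 1 for i-BET858 and 0 for i-BET151, against 37.6% and 27.4% of all genes. That one was DLL1, whose i-BET858 effect changed by −1.39 in log2 fold change from 4 h to 24 h (adjusted p = 0.124), and it passed without vehicle replicate 3 of 24 h (adjusted p = 0.0154). With the replicate block the i-BET858 effect changed by −0.47 for NOTCH1 (adjusted p = 0.0186), −0.77 for NOTCH3 (0.00604) and −0.42 for HES4 (0.0288). The i-BET151 effect changed by −0.49 for NOTCH1 (0.0223), −0.63 for HES4 (0.00304) and 0.52 for NOTCH2 (0.0421). For NOTCH1 this was a smaller rise at 24 h than at 4 h with either compound. With the block 38.3% and 25.2% of all genes passed for i-BET858 and i-BET151. In replicates 1 and 2 alone, where 40.6% and 26.3% of all genes passed, the i-BET858 effect changed for NOTCH1 (−0.51, adjusted p = 0.0262), NOTCH3 (−0.59, adjusted p = 0.00515), DLL1 (−1.54, adjusted p = 0.0212) and JAG2, as given above, and the i-BET151 effect for NOTCH1 (−0.55, adjusted p = 0.0259) and HES4 (−0.66, adjusted p = 0.00972).

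Between the vehicle groups themselves no member passed in edgeR or DESeq2, where 0.0386% of all genes passed in edgeR and 0.507% of the wider set in DESeq2. In edgeR 0 members had an unadjusted p under 0.05 against 9.17% of all genes. NOTCH1 was lower in all 3 vehicle libraries of 24 h than in all 3 of 4 h, at −0.40 in log2 fold change (adjusted p = 0.571), and 18.4% of all genes did not overlap. With the block, JAG1 was lower at 24 h (−0.51, adjusted p = 0.00607), as 2.07% of all genes passed.

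Beyond the members, 51 other genes of the pathway were listed by role, and 48 had enough reads to be tested. NOTCH4, HES5 and HES7 did not. The shares called are read against the same backgrounds. Under i-BET858 at 4 h 8 rose and 8 fell (33.3% of those tested), and under i-BET151 6 rose and 4 fell (20.8%). At 24 h 14 rose and 14 fell under i-BET858 (58.3%), and 14 rose and 7 fell under i-BET151 (43.8%). The medians were 0.050, 0.030, −0.043 and −0.053 in log2 fold change in that order. With the block 26, 22, 32 and 33 of the 48 genes passed in that order, against 45.4%, 32.7%, 52.0% and 45.9% of all genes. No call among them was lost with the block.

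The largest rise was that of DLL4, a Delta-like ligand known from vessel sprouting. It measured 0.215 to 0.596 CPM in vehicle at 4 h, 24.1 to 27.9 CPM under i-BET858 and 5.65 to 9.45 CPM under i-BET151. At 24 h the ranges were 0.191 to 0.539, 7.56 to 8.88 and 3.69 to 5.68 CPM. Vehicle libraries thus held few counts, and the fitted log2 fold changes of 6.21 and 4.46 at 4 h (adjusted p = 9.73e-07 and 1.83e-05) and 4.44 and 3.53 at 24 h rest on them. DLL4 was also higher under i-BET858 than under i-BET151 at 4 h (log2 1.75 ± 0.27, adjusted p = 0.0237). This call was not kept with only these 2 groups fitted, where 0 of 16520 genes passed. DLL3, a divergent ligand that acts within the cell, rose under i-BET858 at 4 h (0.55, adjusted p = 0.0149) and fell with both at 24 h (−0.68 and −0.72). With the block it also rose under i-BET151 at 4 h (0.34, adjusted p = 0.0324).

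NRARP, a Notch-induced ankyrin repeat protein that dampens the pathway, rose with both inhibitors at both times. It measured 14.3 to 23.9 CPM in vehicle at 4 h, 247 to 357 CPM under i-BET858 and 106 to 161 CPM under i-BET151. Its log2 fold changes were 3.97 (adjusted p = 1.13e-06) and 2.78 at 4 h and 1.49 and 0.84 at 24 h. HES6, which counteracts HES1, rose by 3.51, 2.63, 2.62 and 1.82 in the same order, and HES2 by 2.31, 1.53, 0.90 and 0.67. In this role 3 of the 5 genes tested rose in every comparison, where 14.5%, 7.81%, 20.5% and 17.2% of all genes were higher. HEY2, named after its values were seen, fell under i-BET858 at 24 h (−0.35, adjusted p = 0.0241). NRARP at 4 h (1.19, adjusted p = 0.0309) and HES6 at 24 h (0.80, 0.0485) were higher under i-BET858 than under i-BET151. With the block NRARP at 24 h (0.65, adjusted p = 0.00742), HES6 at 4 h (0.87, adjusted p = 0.00046) and HES2 at 4 h (0.77, adjusted p = 0.00491) were so too. With only the 2 inhibitor groups fitted, 0 genes passed at 4 h, so the NRARP call was not kept. At 24 h 1 gene passed in that fit, at a change of at least 2-fold, larger than the log2 0.80 of HES6. None of NRARP, DLL4, HES2 and HES6 held TGGGAA in its 250 bases, and over the list 10 of the 43 genes with a promoter did (23.26%).

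**Figure D5:**
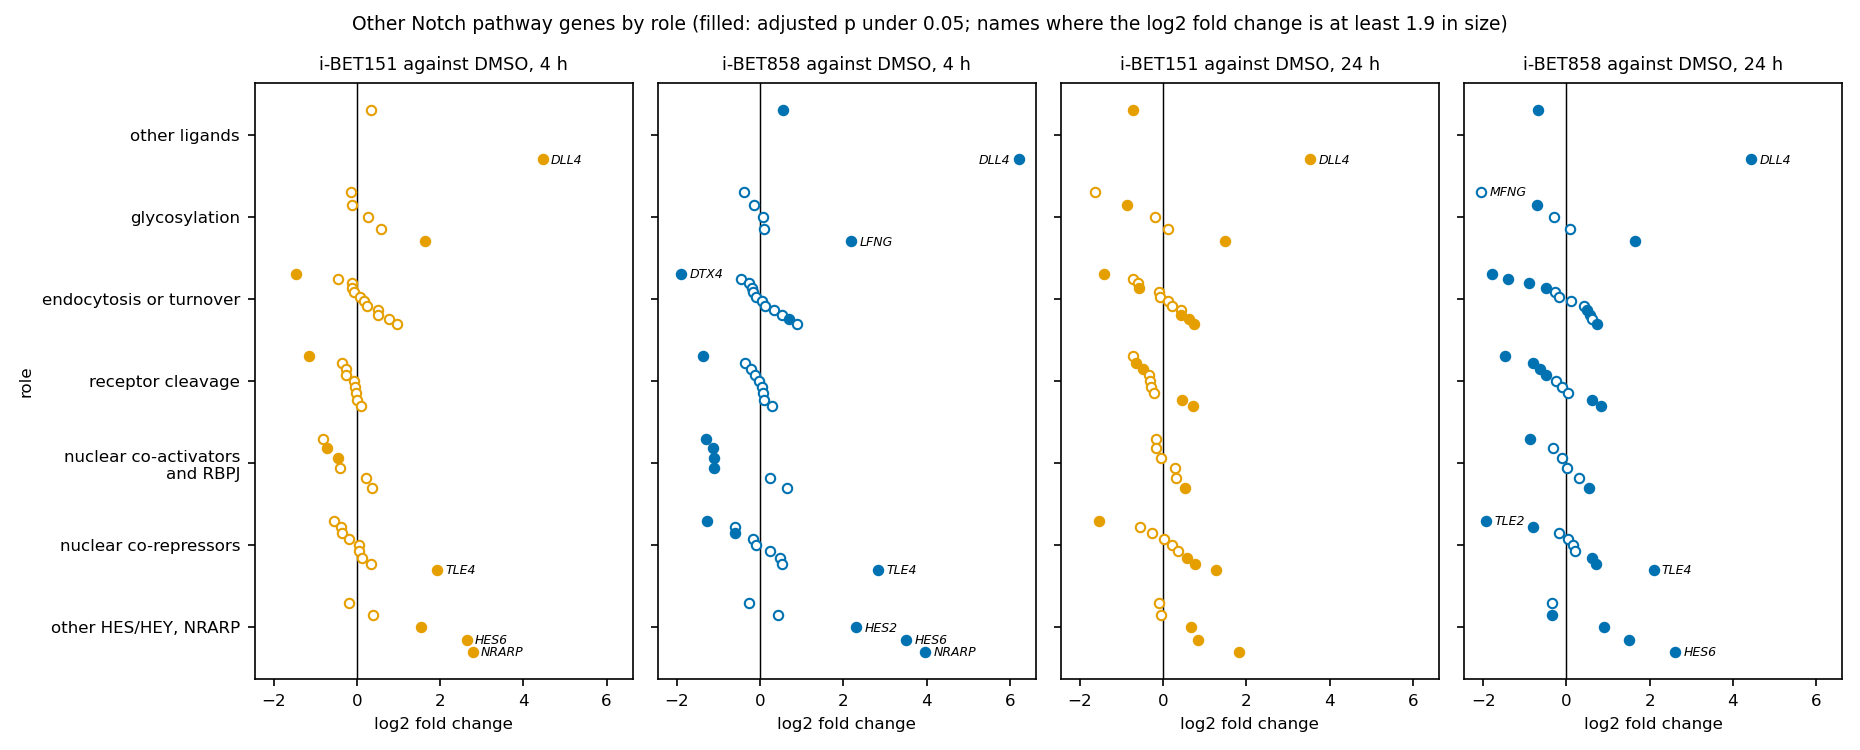
Log2 fold change against vehicle of the tested other genes of the pathway, by role, for each inhibitor and time; filled points passed the test. Names are given where the log2 fold change is at least 1.9 in size; DLL4, NRARP, HES6 and TLE4 lie highest at 4 h, and most genes of receptor cleavage lie near 0 there.

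Of the genes that modify receptors, LFNG, a Fringe glycosyltransferase that changes which ligands a receptor answers to, rose by 2.20 and 1.64 at 4 h and 1.65 and 1.49 at 24 h. RFNG of the same family fell at 24 h (−0.70 and −0.87). Genes of 3 Deltex ubiquitin ligases fell. DTX4 was at −1.90 and −1.46 at 4 h and −0.91 and −0.59 at 24 h, all past the threshold. DTX3 fell at 24 h (−1.78 and −1.43), and DTX1 fell under i-BET858 at 24 h (−1.41). Among the γ-secretase subunits, APH1B fell at 4 h (−1.37 and −1.14) and under i-BET858 at 24 h (−1.46). APH1A fell (−0.80 and −0.65) and PSEN2 rose (0.84 and 0.72) at 24 h. With the block, i-BET151 also passed for APH1B at 24 h (−0.71, adjusted p = 0.0296) and, at 4 h, for DTX3 (−0.47, adjusted p = 0.00818) and DTX1, which rose (1.07, adjusted p = 0.0234).

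In the nuclear complex, the acetyltransferase gene EP300 fell at 4 h under i-BET858 (−1.12) and i-BET151 (−0.71), and CREBBP (−1.30) and SNW1 (−1.12) fell under i-BET858. RBPJ, the DNA-binding partner of the receptors, was added after its values were seen. It measured 72.7 to 75.5 CPM in vehicle at 4 h and 28.2 to 38.1 CPM under i-BET858, a log2 fold change of −1.11 ± 0.14 (adjusted p = 0.00014), and −0.45 under i-BET151 (0.0478). At 24 h it was 0.021 and 0.28 (adjusted p = 0.9 and 0.0781). With the block RBPJ rose under i-BET151 at 24 h (0.28, adjusted p = 0.0335). At 4 h under i-BET151 the block also called CREBBP (−0.85, adjusted p = 2.38e-05) and SNW1 (−0.41, adjusted p = 0.00569). The block called EP300 at 24 h, higher under i-BET858 (0.31, adjusted p = 0.0313) and i-BET151 (0.30, adjusted p = 0.0385), and CREBBP, lower under i-BET858 (−0.35, adjusted p = 0.0386). Among the co-repressors, TLE4, a Groucho family gene, rose in all 4 comparisons (2.84, 1.92, 2.09 and 1.26), TLE2 of the same family fell at 24 h (−1.93 and −1.54), and CIR1, a co-repressor that binds RBPJ, fell under i-BET858 at 4 h (−1.27). With the block CIR1 also fell under i-BET151 at 4 h (−0.55, adjusted p = 0.00204), and TLE2 rose under i-BET858 at 4 h (0.47, adjusted p = 0.00814).

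Between the inhibitors 3 of the 48 other genes passed at 4 h (6.25%) and 1 at 24 h (2.08%), against 0.971% and 0.21% of all genes. The genes called were DLL4 and NRARP at 4 h and HES6 at 24 h, given above, and TLE4, which was higher under i-BET858 at 4 h (0.92 ± 0.17, adjusted p = 0.033). None of the calls at 4 h was kept with only the 2 inhibitor groups fitted, where 0 of 16520 genes passed. With the block 13 and 3 passed, against 9.63% and 4.37% of all genes. At 4 h the block called CIR1 (−0.72, adjusted p = 0.00192), SNW1 (−0.71, adjusted p = 0.000823), RBPJ (−0.66, adjusted p = 0.00229), CREBBP (−0.49, adjusted p = 0.00895), EP300 (−0.40, adjusted p = 0.0288) and DTX4 (−0.45, adjusted p = 0.021) lower under i-BET858 and LFNG (0.56, adjusted p = 0.000632) higher. The block also called TLE4 higher at 24 h (0.84, adjusted p = 0.00666).

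Last, the genes whose level followed each member most closely were sought among 18154 genes, by Pearson's r of log2 CPM over the 18 libraries. These libraries share treatment groups and replicate numbers, so the values are a description. NOTCH1 was most like SKI (0.98) and SLC45A4 (0.98), MAML2 most like LARS2 (0.98) and TMEM100 (0.96), NOTCH3 most like MLLT6 (0.97) and ANKRD28 (0.97) and JAG1 most like DSC3 (0.97) and MSN (0.96). NOTCH2 followed ABHD2 (0.94) and NEO1 (0.94), JAG2 followed OSBPL6 (0.93) and C1orf226 (0.93), DLL1 followed PHACTR4 (0.89) and RBBP6 (0.88), HEY1 followed ADORA2B (0.89) and RPUSD2 (0.88) and HES4 followed ATP5F1D (0.92) and TMEM238 (0.88). HES1 had the loosest partners, RARA (0.80) and LINC02505 (0.79).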

How the data were processed

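Messenger RNA from OVCAR-3 cells was enriched by poly-A and read in pairs on a NovaSeq, giving 18 libraries, and the values deposited by the authors were raw counts per gene, one table per time. The authors used FastQC for read quality and STAR both for alignment to GRCh38 and for the gene counts. The annotation and strand setting are not given in the sources used here. No sample column was left unused. Of 58825 genes, 23896 had no count and 58472 matched GENCODE 44, from which symbols, positions and exon lengths were taken.

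Counts were fitted with edgeR 4.0.16 (limma 3.58.1, R 4.3.3): TMM scaling, filterByExpr, quasi-likelihood test, Benjamini-Hochberg adjustment over all genes tested, threshold 0.05. Each time was fitted on its 9 libraries in 3 groups, and changes between times on all 18. Log2 fold changes are given with the standard error of the fit. Alternatives were DESeq2 1.42.0, its size factors, total library size, other low-count filters, a 2-fold criterion, other sets of libraries and each library left out. Shares were tested with SciPy 1.17.1. The scripts were tested on simulated data.

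After group means were removed, libraries of the same replicate number correlated across genes (4 h 0.125 to 0.344, 24 h 0.145 to 0.330 over 9 pairs each, above 0.1 throughout, medians 0.274 and 0.263). Libraries of different numbers, 18 pairs each, had medians of −0.204 and −0.232 but reached 0.216 and 0.285, so the ranges overlap. By the 0.1 limit the numbers were taken to pair the libraries, a hint from the data since the labels do not state a pairing. The replicate 3 libraries stood apart in every group, which by itself makes libraries of the same number correlate. The check therefore cannot tell pairing by number from a shift of replicate 3, and the blocked values carry that limit. Blocked values against vehicle and between inhibitors are printed where they change a call of a named gene.

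The members and the lists of other pathway genes and markers were chosen with earlier results of these data known. All members are named, with up to 3 other genes per role, those with the largest called change of one sign in all 9 pairs of libraries, and the 2 genes most alike per member. RBPJ, MAML1, MAML3 and HEY2 were added after their values were seen. Promoters came from RefSeq (GRCh38.p14).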

Additional observations from a re-analysis of the deposited data

Results flagged for a closer look

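The effects of an inhibitor at 4 h and 24 h differed by the interaction test (edgeR, all 18 libraries, adjusted p under 0.05) for none of the 10 members. Of the 48 other pathway genes tested, the change was positive for 11 and negative for 12 under i-BET858, against 27.2% of all genes, and positive for 5 and negative for 6 under i-BET151, against 13.8%. With the replicate block 30 and 22 of the 48 passed, against 38.3% and 25.2% of all genes. Those among them that the report names are given here, each value being the log2 fold change at 24 h minus that at 4 h. Groups of 3 libraries are too small for a flag on a single outlying library within its group, though each library was left out in turn.

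Among the ligands, DLL3 changed by −1.18 under i-BET858 and −1.03 under i-BET151, and DLL4 by −1.73 under i-BET858. Of the Deltex genes, DTX1 changed by −2.26 under i-BET858, DTX3 by −1.55 under i-BET858 and −0.95 under i-BET151, and DTX4 by 1.04 under i-BET858, its fall being smaller at 24 h. Of the γ-secretase subunits, PSEN2 changed by 0.84 and 0.79, and APH1A by −0.74 and −0.55, under i-BET858 and i-BET151 in that order.

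In the nuclear complex, EP300 changed by 1.48 under i-BET858 and 1.04 under i-BET151, and SNW1 by 1.06 and CIR1 by 1.47 under i-BET858, and none of these 3 passed the test against vehicle at 24 h without the block, with which EP300 did. RBPJ changed by 1.17 under i-BET858 and 0.74 under i-BET151, and MAML3 by −1.47 under i-BET858. TLE2 changed by −2.35 under i-BET858 and −1.86 under i-BET151, and TLE4 by −0.70 under i-BET858. NRARP changed by −2.44 under i-BET858 and −1.92 under i-BET151, and HES2 by −1.36 and −0.84. Their rises were smaller at 24 h. The causes of these differences were not tested.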

How the results depend on the processing

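NOTCH1, JAG2 and MAML2 against vehicle, NOTCH3 (24 h) and DLL1 (4 h) under i-BET858, and HEY1 under i-BET151 at 24 h kept direction and call under every setting and left-out library, apart from the 2-fold criterion at 24 h; the exceptions for HEY1 and NOTCH3 stand in the report. Under total library size the median log2 fold change of all genes moved to −0.14 at 4 h and −0.099 at 24 h under i-BET858, and 1746 of 5464 called genes were higher at 4 h, against 2497 of 5303 under TMM. Over all genes, calls between inhibitors went from 167 to 1655 at 4 h and from 36 to 749 at 24 h with the block (658 and 420 in DESeq2), from 2791 to 5616 for i-BET151 at 4 h, from 2508 to 4580 for its change over time and from 7 to 375 between vehicles (177 in DESeq2). With only the 2 groups compared in the fit, calls fell to 0 at 4 h and 1 at 24 h between inhibitors and to 0 between vehicles. With DESeq2 size factors in edgeR they were 159 and 13 between inhibitors and 4 between vehicles. Depth limits DLL1, at 10 to 147 counts per library. The causes of the shifts below were not tested.

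With the replicate block, which pairs libraries by number, called members went from 3 to 6 (i-BET151, 4 h), 5 to 8 with each inhibitor at 24 h, 0 to 1 and 0 to 2 between inhibitors at 4 h and 24 h, 0 to 3 for each change over time and 0 to 1 between vehicles; the shares of all genes with the block stand in the report. Other pathway genes went from 16 to 26, 10 to 22 and 21 to 33 (i-BET858 4 h, i-BET151 4 h and 24 h). The block changed no other member call than those in the report. In replicates 1 and 2 alone members numbered 5 (i-BET151, 4 h; 25.9% of all genes), 8 (i-BET151, 24 h; 54.2%), 1 between inhibitors at 24 h (7.29%), and 4 and 2 for the changes of i-BET858 and i-BET151 (40.6% and 26.3%), and other pathway genes 17 and 32 of 48 under i-BET151 at 4 h and 24 h. With the 2-fold criterion at 24 h, 3 and 1 members and 9 and 6 other genes were called, against 18.8% and 13.7% of all genes. Without a filter, which adds genes of few counts to those tested, members numbered 8 (i-BET151, 24 h; 19.1% of all genes then tested) and 1 each between inhibitors at 24 h (1.08%), for the changes of i-BET858 (13.8%) and i-BET151 (7.40%) and between vehicles (0.461%). Leaving out 1 library gave 0 to 1 for the i-BET858 change.

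Signs turned only among differences that were not called. Under total library size NOTCH2 was −0.085 and HES4 −0.014 (i-BET858, 4 h), and between inhibitors at 4 h NOTCH3 was −0.088 and HES4 −0.063. In replicates 1 and 2 NOTCH2 was −0.012 and −0.0056 (i-BET858, 4 h and 24 h), DLL1 −0.13 and −0.31 (24 h), between inhibitors NOTCH3 −0.095 and HES4 −0.084 (4 h), JAG2 0.053, DLL1 0.17 and HES1 0.0011 (24 h), and between vehicles NOTCH3 0.082, MAML2 0.029 and HEY1 −0.15. The block gave NOTCH3 −0.012 between inhibitors at 4 h and DLL1 −0.032 between vehicles. Without a filter JAG2 was 0.0021 and DLL1 −0.000113 in the 24 h inhibitor and the vehicle comparison. The change of the i-BET858 effect on HES1 was −0.042 (DESeq2), −0.042 (its size factors) and −0.076 (at least 10 counts).

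Ranges over left-out libraries that include both signs were, against vehicle, NOTCH2 −0.23 to 0.29 and −0.42 to 0.16 (4 h, i-BET858 and i-BET151) and −0.12 to 0.33 (i-BET858, 24 h), JAG1 −0.36 to 0.041 (i-BET858, 4 h), HES4 −0.12 to 0.33 and −0.032 to 0.30 (4 h), and DLL1 −0.25 to 0.52 and −0.22 to 0.55 (24 h). Between inhibitors at 4 h they were NOTCH2 −0.17 to 0.50, NOTCH3 −0.44 to 0.36, JAG1 −0.075 to 0.43, JAG2 −0.050 to 0.30, HES1 −0.19 to 0.063 and HES4 −0.23 to 0.18, and at 24 h JAG1 −0.37 to 0.17, JAG2 −0.086 to 0.061, DLL1 −0.23 to 0.14, HES1 −0.26 to 0.028 and HEY1 −0.025 to 0.32. For changes over time they were NOTCH2 −0.17 to 0.38 and HES1 −0.037 to 0.084 (i-BET858) and NOTCH3 −0.52 to 0.014, JAG1 −0.32 to 0.24 and HES1 −0.054 to 0.21 (i-BET151), and between vehicles NOTCH3 −0.22 to 0.10, DLL1 −0.34 to 0.45 and HEY1 −0.055 to 0.25.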
